A study of Mus musculus with 41 samples.

Results

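Chemokine ligands, the small secreted proteins that direct leukocyte migration, were followed through 24 peak lists of 4 histone modifications in mouse cells and tissues. The 32 genes were set as a list of names, by a rule with no threshold on measured values, and comprised 17 CC ligands, 13 CXC ligands, the CX3C ligand Cx3cl1 and the C ligand Xcl1. Of these, 31 were among the 21755 genes annotated as protein-coding on chromosomes 1 to 19 and X, which served as the background, and Cxcl11 was annotated as a polymorphic pseudogene. A gene was counted as called in a list when a peak overlapped the 2000 bp on either side of any of its annotated starts (GENCODE vM21, mm10).

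Chemokines are grouped by the spacing of their first cysteines and act on G protein-coupled receptors of leukocytes. In macrophages many of them are inflammatory genes that are switched on rapidly through NF-kB, AP-1 and interferon-regulated factors, whereas others, such as Cxcl12, are made constitutively by stromal cells. Many of the genes arose by tandem duplication and lie side by side in clusters. Lactylation of lysine 18 of histone H3 (H3K18la) and acetylation of lysine 27 (H3K27ac) are found at active promoters and enhancers, trimethylation of lysine 4 (H3K4me3) marks promoters, and trimethylation of lysine 27 (H3K27me3) is deposited by Polycomb at repressed regions.

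The 41 libraries were made by CUT&Tag, in which an antibody tethers a transposase to a histone modification so that DNA around it is cut and sequenced. The groups were E14 mouse embryonic stem cells in serum and LIF (mESC-ser) or in 2i and LIF (mESC-2i), myoblasts in primary culture (MB), myotubes made from such cultures (MT), whole gastrocnemius muscle (GAS), bead-captured adipocyte nuclei of epididymal fat from AdipoCre-NuTRAP females (ADIPO), bone marrow-derived macrophages grown with M-CSF (BMDM), and post-ischemia macrophages (PIM). Primary cells and tissues were labelled as of the C57BL/6 strain; per the methods, the wild-type mice were young adult females of the substrain C57Bl6/J. PIM were sorted as CD45+ CD11b+ F4/80+ CD64+ cells from calf muscle after ligation of the femoral artery. All groups were labelled as control, the stem cells were profiled as whole cells and the others as nuclei, and GAS was whole tissue with every cell type of the muscle.

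Each group had 1 peak list, called after its libraries were merged. Of the 24 lists, 17 merged 2 libraries and 7 held 1, among them all 3 of BMDM and H3K27ac in PIM. No value below therefore has a replicate error, the spread between animals or cultures is not known, and no test was made; counts are set beside the same count over all genes. The lists covered between 0.856% (H3K18la in BMDM) and 7.47% (H3K27ac in GAS) of the chromosomes, so counts were read within a list first. H3K18la at marker genes mostly went with the labels: 8 of 8 macrophage markers were called in BMDM and in PIM, 6 of 6 muscle markers in MT and in GAS but 2 of 6 in MB, 5 of 5 stem cell markers in both stem cell lists and 5 of 5 adipocyte markers in ADIPO. Neutrophil markers were called for 4 of 6 genes in PIM (S100a8, Ly6g, Csf3r and Mpo) and for 2 of 6 in BMDM (S100a8 and Csf3r), fibroblast markers for 0 of 3, endothelial markers for 2 of 4 (Pecam1 and Cdh5) and T cell markers for 1 of 3 (Cd3d) in both; their part in the results was not tested. Macrophage markers were called for 3 of 8 genes in MT, 3 of 8 in ADIPO and 2 of 8 in GAS, and adipocyte markers for 2 of 5 in PIM.

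H3K18la was called at 13 of 32 chemokine ligand promoters in BMDM, where 18.5% of all genes were called, and at 18 of 32 in PIM, where 37.8% were called. It was called at 3 members in mESC-ser (all genes, 33.4%), 4 in mESC-2i (37.8%), 9 in MT (34.8%), 9 in GAS (36.1%) and 7 in ADIPO (44.7%), in each case a smaller share than over all genes, and at 4 in MB (11.1%), about the share of all genes. With these settings the share of members was thus well above that of all genes in BMDM and PIM, and about equal to it (MB) or below it in the other 6 lists. The counts in BMDM and PIM were 12 and 15 with a window of 1000 bp. They were 6 and 13 when a peak had to cover 2000 bp of the window, and 7 and 10 among the 5000 strongest peaks. The shares of all genes under these other settings were not computed. Of the 256 combinations of member and H3K18la list, 67 were called. The genes in clusters made up most of the macrophage calls, 12 of 23 in BMDM and 15 of 23 in PIM, against 1 and 3 of the 9 genes that stand alone. Whether a mark was present in more of the cells or at a higher level per cell cannot be told apart in such bulk lists.

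**Figure D1:**
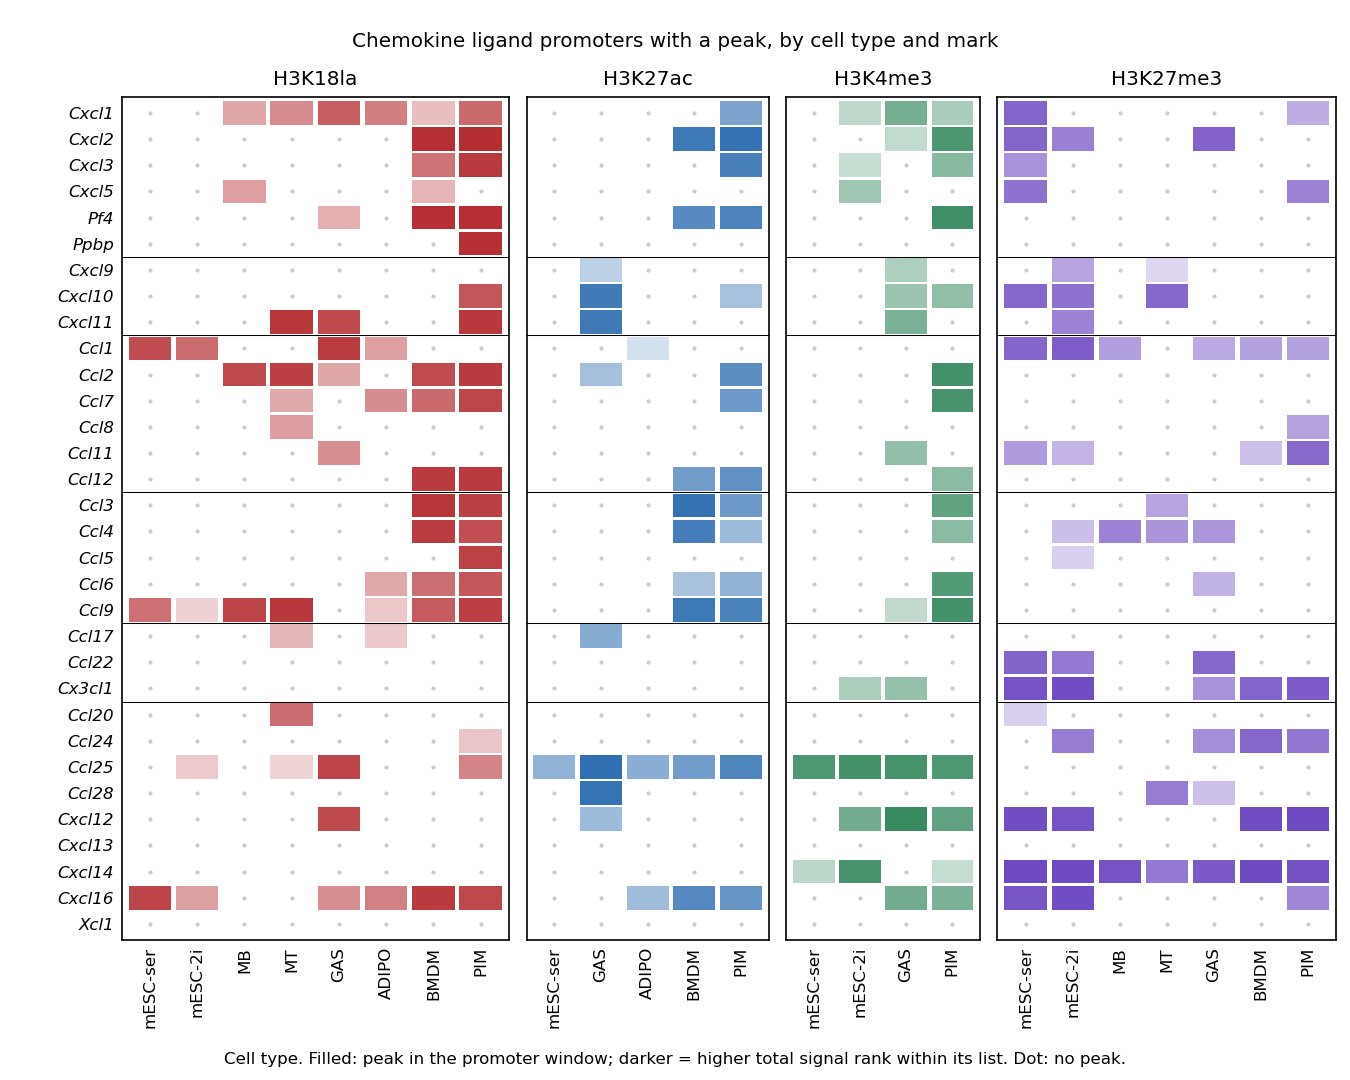
Calls of the 32 chemokine ligand genes (rows) in the 24 peak lists (columns, grouped by mark), with a filled cell where a peak overlaps the promoter window and a darker shade for a peak that ranks higher by total signal within its own list. The H3K18la columns of BMDM and PIM hold 13 and 18 filled cells, against 3 to 9 in the other H3K18la columns.

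**Figure D2:**
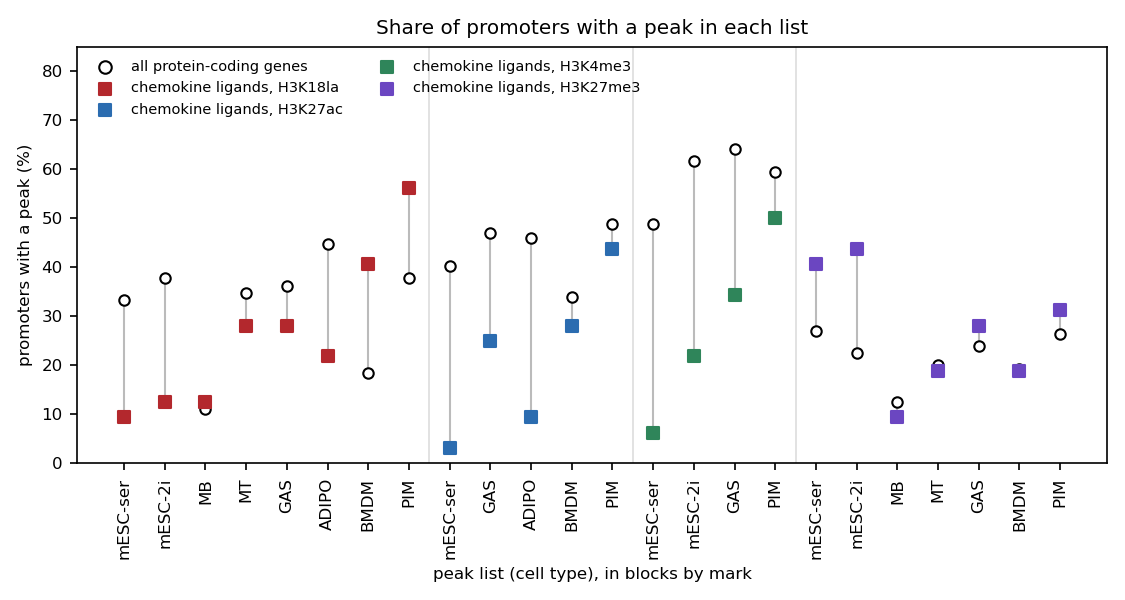
Share of the 32 chemokine ligand genes called (%) and share of all 21755 protein-coding genes called (%) in each peak list, by mark. Members lie well above all genes in H3K18la of BMDM and PIM and in H3K27me3 of mESC-ser and mESC-2i, and well below in H3K27ac and H3K4me3 of the stem cells.

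The promoters of 6 members called in one or both macrophages are shown here with motifs that bear on inflammatory induction. Each line gives a RefSeq promoter from 250 bases before to 50 after the start (GRCm38.p6, the mm10 assembly), 5′ to 3′ on the gene's strand. Capitals mark every match, on either strand, to TATAAA, to an NF-kB motif (GGG, any 2 bases, TTTCC), to an interferon-response motif (GAAA, any 2 bases, GAAA) or to an AP-1 motif (TGANTCA). Cxcl2 and Cxcl1 (both neutrophil attractants) and their neighbour Cxcl3 are shown as a set because they are related neighbours with NF-kB matches at like distances, Ccl12 because, like Cxcl2, it was called in both macrophages and no other cell type under 6 of 6 settings, Ccl9 because it had 3 kinds of motif, and Cxcl10 as an interferon-induced gene called in PIM but not in BMDM. The promoters lie at chr5:90903649-90903948 (Cxcl2, plus strand), chr5:90890995-90891294 (Cxcl1, plus), chr5:90785851-90786150 (Cxcl3, plus), chr11:82101595-82101894 (Ccl12, plus), chr11:83578587-83578886 (Ccl9, minus) and chr5:92348840-92349139 (Cxcl10, minus).
Cxcl2: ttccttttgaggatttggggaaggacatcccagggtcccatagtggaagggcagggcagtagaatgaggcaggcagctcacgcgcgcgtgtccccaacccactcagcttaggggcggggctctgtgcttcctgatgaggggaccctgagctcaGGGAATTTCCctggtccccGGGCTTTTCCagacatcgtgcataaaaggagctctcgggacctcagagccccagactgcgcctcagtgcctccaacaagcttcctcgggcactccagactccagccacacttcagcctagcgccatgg
Cxcl1: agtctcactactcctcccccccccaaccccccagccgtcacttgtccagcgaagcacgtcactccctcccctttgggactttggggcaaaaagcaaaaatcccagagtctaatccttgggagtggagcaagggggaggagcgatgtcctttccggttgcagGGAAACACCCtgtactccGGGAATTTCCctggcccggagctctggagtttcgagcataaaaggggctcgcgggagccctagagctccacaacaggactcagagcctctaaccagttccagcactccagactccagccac
Cxcl3: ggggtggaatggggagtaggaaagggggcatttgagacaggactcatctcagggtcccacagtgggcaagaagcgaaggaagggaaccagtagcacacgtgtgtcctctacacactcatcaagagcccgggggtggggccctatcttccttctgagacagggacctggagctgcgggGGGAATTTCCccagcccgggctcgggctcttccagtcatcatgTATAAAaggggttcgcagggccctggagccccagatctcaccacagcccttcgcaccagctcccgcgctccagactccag
Ccl12: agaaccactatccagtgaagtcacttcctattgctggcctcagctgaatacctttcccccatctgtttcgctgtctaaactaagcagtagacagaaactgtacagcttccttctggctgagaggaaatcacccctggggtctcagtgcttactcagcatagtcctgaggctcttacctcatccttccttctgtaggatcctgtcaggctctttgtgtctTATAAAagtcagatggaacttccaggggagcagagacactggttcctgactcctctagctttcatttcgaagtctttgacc
Ccl9: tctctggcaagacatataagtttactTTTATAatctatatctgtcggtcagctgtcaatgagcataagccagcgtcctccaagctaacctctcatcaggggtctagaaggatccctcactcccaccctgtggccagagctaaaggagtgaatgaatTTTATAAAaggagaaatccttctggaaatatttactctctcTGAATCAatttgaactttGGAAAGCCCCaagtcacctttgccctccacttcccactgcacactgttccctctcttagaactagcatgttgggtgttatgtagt
Cxcl10: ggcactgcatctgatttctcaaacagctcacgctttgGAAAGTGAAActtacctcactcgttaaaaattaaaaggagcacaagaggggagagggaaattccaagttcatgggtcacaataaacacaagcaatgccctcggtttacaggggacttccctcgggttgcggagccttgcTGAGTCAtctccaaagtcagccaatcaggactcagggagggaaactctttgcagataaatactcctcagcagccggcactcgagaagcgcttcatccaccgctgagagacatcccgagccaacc

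In Cxcl1 and Cxcl2 a pair of NF-kB matches lay close upstream of the start, at -89 (minus strand) and -71 in Cxcl1 and at -97 and -78 in Cxcl2. Cxcl3 had 1 match, at -73, followed by a TATA match at -30. Ccl12 had its TATA match at -31, and Cxcl10 had the interferon-response motif at -213 and the AP-1 motif at -74. In Ccl9 the 8 letters in capitals that read the same on both strands are a pair of overlapping TATA matches. Over the 23 members that had a RefSeq promoter, the NF-kB motif was found in 5 (Ccl9, Ccl20, Cxcl1, Cxcl2 and Cxcl3; 1.63% of all 32851 promoters), TATAAA in 9 (13.6%), the AP-1 motif in 5 (7.81%) and the interferon-response motif in 2 (3.44%; Cxcl10 and Cxcl14).

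The promoters were poor in CpG. A CpG island lay in the promoter window of 12 of 32 members, against 76.4% of all genes, and under the stricter definition of 5 of 32 (Ccl25, Cxcl12, Cxcl14, Cxcl16 and Cx3cl1), against 61%. The RefSeq promoters of members held a median of 3.5 CpG dinucleotides, against 7 over all promoters, at a GC content of 51% against 52.7%.

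Among the neutrophil-attracting CXC ligands, Cxcl2, Cxcl3 and Cxcl1 were called in both macrophages and Cxcl5 in BMDM. Cxcl2 had the highest-ranking H3K18la peak of all members in both: in BMDM chr5:90902262-90904310 (2049 bp) was number 725 of 19571 peaks by total signal, in the top 3.70%, and in PIM chr5:90902282-90906205 (3924 bp) was number 841 of 32066, in the top 2.62%. Its peaks also stood high for H3K27ac, in the top 10.5% in BMDM and 4.93% in PIM. Cxcl3 was in the top 43.1% (1365 bp) in BMDM and 10.4% (5845 bp) in PIM, and Cxcl1 in the top 87.4% and 38.2%. The 3 neighbours thus shared the call but differed widely in rank within each list. Cxcl5, the fourth ligand of this kind, was the single member called in BMDM but not in PIM, by a 476 bp peak in the top 82.5% that lay 1366 bp from its start. In PIM the promoters of Cxcl1 and Cxcl5 were called for H3K27me3, that of Cxcl1 together with H3K18la.

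The platelet-associated CXC genes Pf4 and Ppbp lie next to each other in the same cluster. Pf4, platelet factor 4, ranked just below Cxcl2, in the top 3.84% in BMDM (chr5:90770676-90773263, 2588 bp) and 4.13% in PIM (chr5:90770269-90774868, 4600 bp). Ppbp was called in PIM and not in BMDM, where its nearest H3K18la peak was 2158 bp away. The wider PIM peak over Pf4 reached into the window of Ppbp, and the start of Ppbp lay in a separate 1207 bp peak in the top 75.3%.

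The monocyte attractants Ccl2, Ccl7 and Ccl12 were called in both macrophages. Ccl2, the main Ccr2 ligand, was in the top 20.5% (866 bp) in BMDM and 10.9% (5116 bp) in PIM, Ccl7 in the top 38.2% (1230 bp) and 17.2% (3797 bp), and Ccl12, a further Ccr2 ligand of the mouse, in the top 10.9% (2828 bp) and 10.1% (3755 bp). Of the 3, Ccl12 held almost the same rank in both lists. Ccl8 and Ccl11, which lie in the same cluster, were called in neither, and both were called for H3K27me3 in PIM.

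In the second chromosome 11 cluster, Ccl3, Ccl4, Ccl6 and Ccl9, inflammatory attractants of leukocytes, were likewise called in both. Ccl3 was in the top 7.97% (chr11:83647987-83649996, 2010 bp) in BMDM and 13.7% (2205 bp) in PIM, and Ccl4 in the top 11.2% (2386 bp) and 22.2% (2450 bp), so both ranked lower in PIM. Ccl9 stood in the top 29.9% (979 bp) and 12.7% (3677 bp), and Ccl6 in the top 40.4% (501 bp) and 27.3% (3990 bp), so both ranked higher there. The same was true of most genes called in both lists, 2855 of 3741. Ccl5, which attracts T cells and monocytes, was called in PIM (5006 bp, top 14.0%) by a peak 1638 bp from its start, and in BMDM its nearest peak was 2616 bp away.

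Of the interferon-induced Cxcr3 ligands, Cxcl10 and Cxcl11 were called for H3K18la in PIM alone and Cxcl9 in neither macrophage; the Cxcl10 call was lost with equal called bases and among the 5000 strongest peaks, and the Cxcl11 call with a window of 1000 bp and when a peak had to cover 2000 bp of the window. Cxcl10 was called in PIM for H3K18la (3439 bp, top 27.2%), H3K27ac (top 72.9%) and H3K4me3, and in BMDM for none of its 3 marks; the nearest BMDM H3K18la peak was 4620 bp away. The PIM peak counted for Cxcl11 (2713 bp, top 9.09%) lay 1723 bp from the start, and Cxcl9 was called in neither macrophage for any mark. Of the transmembrane ligands, Cxcl16 was called for H3K18la in both (top 10.9% in BMDM, 19.1% in PIM), but the same peaks covered the start of Zmynd15, and in both Cx3cl1 was called for H3K27me3 alone.

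The 13 genes without H3K18la in either macrophage, among them ligands of lymphoid tissue, mucosa and stroma, were Ccl1, Ccl8, Ccl11, Ccl17, Ccl20, Ccl22, Ccl28, Cxcl9, Cxcl12, Cxcl13, Cxcl14, Cx3cl1 and Xcl1. For some of them no H3K18la was near. Cxcl13, a B cell attractant, lay 219785 bp from the nearest peak in BMDM and 202970 bp in PIM, and Xcl1, a ligand of dendritic cells made by T and NK cells, 177575 bp and 196531 bp. These 2 genes were called in no list of any mark. Ccl24, an eosinophil attractant, was called in PIM by a peak near the bottom of the list (1795 bp, top 91.7%), 1344 bp from its start, and carried H3K27me3 in both macrophages. Ccl25, a thymic and gut ligand, was called in PIM (2258 bp, top 53.4%) by a peak that also covered the start of Elavl1, a broadly expressed gene.

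Between BMDM and PIM, H3K18la was called in both at 12 members (17.2% of all genes), in PIM alone at 6 (20.6%; Ccl5, Ccl24, Ccl25, Cxcl10, Cxcl11 and Ppbp), in BMDM alone at Cxcl5 (1.34%) and in neither at 13 (60.8%). The genes called in both therefore exceeded the background, and those called in PIM alone did not. The PIM list was larger, with 68.9 Mb or 2.62% of the chromosomes called against 22.6 Mb or 0.856% in BMDM. When the PIM list was cut to its strongest peaks until both lists held equal bases, 6 members remained called in both (Ccl2, Ccl9, Ccl12, Cxcl2, Cxcl3 and Pf4; 5.7% of genes), 2 in PIM alone (Cxcl11 and Ppbp; 1.14%) and 7 in BMDM alone (12.8%). The order of the counts in PIM alone and in BMDM alone thus turned with equal bases. The counts were 5 and 2 among the 5000 strongest peaks of each list, 7 and 0 when a peak had to cover 2000 bp of the window, a setting that favours the wider peaks of PIM, and 3 and 0 with a window of 1000 bp; the shares of all genes under these settings were not computed. BMDM and PIM also differed in culture against tissue, in sorting, in 1 against 2 libraries and in neutrophil markers, and these cannot be told apart.

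The peaks at the 12 shared members were wider in PIM at 12 of 12, with a median of 3776 bp against 1687.5 bp. The same held for 3344 of the 3741 genes called in both lists (median 2308 bp against 1021 bp) and was thus shared by most genes of the lists. By rank, 8 of the 12 stood higher in PIM, and over all genes 2855 of 3741 did. Chemokine ligand peaks ranked high in both: the median over called members was the top 20.5% in BMDM (all called genes, 48.8%) and 13.9% in PIM (40.3%), and highest coverage was 1.65 and 1.60 times the list median (all called genes, 1.03 and 1.18). Ranked by highest coverage instead, the medians were 24.1% in BMDM and 26.4% in PIM, so the order of the 2 lists turned. Of the called members, 3 of 13 in BMDM and 4 of 18 in PIM lay in the top 10% of peaks (all called genes, 10.1% and 13.7%); the 4 in PIM, Cxcl2, Pf4, Ppbp and Cxcl11, stood for 3 peaks, since that of Pf4 was also counted for Ppbp.

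**Figure D3:**
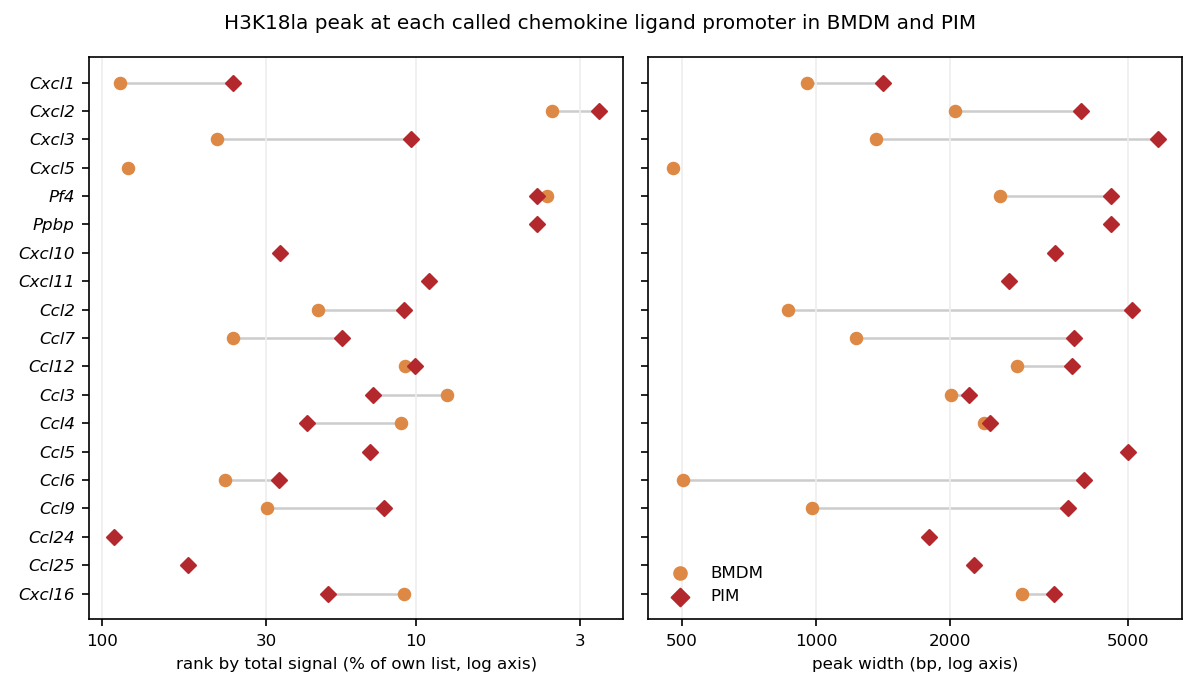
H3K18la peak at each chemokine ligand promoter called in BMDM (orange circles) or PIM (red diamonds): rank by total signal as a percentage of its own list (left, log axis, highest rank to the right) and peak width in bp (right, log axis), with a grey line joining a gene called in both. All 12 joined genes are wider in PIM, while Ccl3, Ccl4, Cxcl16 and Pf4 rank lower there; Cxcl2 and Pf4 rank high in both.

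H3K27ac was called at 9 members in BMDM (all genes, 34%) and at 14 in PIM (48.8%), and at 1 in mESC-ser (40.2%), 8 in GAS (47%) and 3 in ADIPO (46.1%). The 9 of BMDM (Ccl3, Ccl4, Ccl6, Ccl9, Ccl12, Ccl25, Cxcl2, Cxcl16 and Pf4; both lists, 33.2% of genes) were all called in PIM, which added Ccl2, Ccl7, Cxcl1, Cxcl3 and Cxcl10 (PIM alone, 15.5%), and 0 were called in BMDM alone (0.777%). With equal called bases 8 were called in both (27.3%), 6 in PIM alone (21.4%) and 0 in BMDM alone (0.405%). The order of the counts turned when a peak had to cover 2000 bp of the window (0 in PIM alone and 7 in BMDM alone) and among the 5000 strongest peaks of each list (1 and 3). The shares of all genes under these settings were not computed, and H3K27ac peaks were wider in PIM at 735 of the 7231 genes called in both lists. Neither share stood above the background as it did for H3K18la. Ccl3 ranked highest in BMDM, in the top 5.36% (4366 bp), and Cxcl2 in PIM, in the top 4.93% (2100 bp). The median rank was the top 24% in BMDM (all called genes, 41.7%) and 33.1% in PIM (27.1%), so the acetylation peaks of members ranked above those of other genes in BMDM and slightly below in PIM.

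In BMDM, 5 members had H3K18la without H3K27ac in the promoter window, a combination found in 2.15% of all genes: Ccl2, Ccl7, Cxcl1, Cxcl3 and Cxcl5. The nearest BMDM H3K27ac peaks lay 5829 bp from the start of Ccl2, 3155 bp from Ccl7, 5581 bp from Cxcl1, 12883 bp from Cxcl3 and 11200 bp from Cxcl5. The first 4 of these genes carried both marks in PIM. A further 8 members had both marks in BMDM (16.4%), and Ccl25 had H3K27ac without H3K18la (17.6%).

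H3K4me3 was called at 16 members in PIM (all genes, 59.4%), 11 in GAS (64.2%), 7 in mESC-2i (61.8%) and 2 in mESC-ser (48.8%), in each list a smaller share than over all genes. In PIM, 14 members carried H3K18la, H3K27ac and H3K4me3 together (34% of genes). Cxcl12 and Cxcl14 carried H3K4me3 alone (9%), 12 members none of the 3 (38.7%), and 0 members H3K27ac with H3K4me3 but without H3K18la, a combination found in 14.2% of genes. H3K18la alone was found at 4 members, Ccl5, Ccl24, Cxcl11 and Ppbp, against 1.27% of genes. At Ccl5, Ccl24 and Cxcl11 no peak reached the start, and the nearest lay over 1000 bp from it; of all 277 genes with H3K18la alone in PIM, the start was inside a peak at 37.2% and over 1000 bp away at 32.1%, against 73.7% and 4.64% of the 8233 genes called for H3K18la. For H3K4me3 in PIM the highest coverage of members' peaks was 1.15 times the list median, lower than for all called genes (2.20), whereas for H3K18la it was higher.

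H3K27me3 was called at 13 members in mESC-ser (all genes, 27%) and 14 in mESC-2i (22.5%), at 3 in MB (12.5%), 6 in MT (20.1%), 9 in GAS (23.9%), 6 in BMDM (19.2%) and 10 in PIM (26.4%). Stem cells thus held the highest counts, and those of BMDM and PIM were near their backgrounds. In mESC-ser, 10 members had H3K27me3 and no active mark (12.5% of genes) and 17 had no mark (31.5%). Among the genes called for H3K18la in both macrophages, Ccl3, Ccl4, Ccl6, Cxcl2 and Cxcl3 carried H3K27me3 in at least 1 other cell type and in neither macrophage. The single call of Ccl3, in MT, was by a peak 1126 bp from the start, and that of Ccl6, in GAS, by a peak 512 bp away. This arrangement, H3K27me3 in other cell types only, held for 12 members (18.1% of genes), among them Ccl22, a Ccr4 ligand, which was called in both stem cell lists and GAS.

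In the macrophages, H3K27me3 was called in both at 6 members (17.7%; Ccl1, Ccl11, Ccl24, Cxcl12, Cxcl14 and Cx3cl1), in PIM alone at 4 (8.77%; Ccl8, Cxcl1, Cxcl5 and Cxcl16) and in BMDM alone at 0 (1.55%). With equal called bases the counts were 6 (17.6%), 4 (8.19%) and 0 (1.66%). Cxcl12 and Cxcl14 had the widest peaks of the members. Cxcl12, the Cxcr4 ligand that retains progenitors in the marrow, lay in a 26609 bp peak in BMDM (top 4.40%) and a 33848 bp peak in PIM (top 1.74%), and Cxcl14, a homeostatic ligand of epithelia, in peaks of 45695 bp and 18730 bp (top 3.09% and 7.69%). Cxcl14 was called for H3K27me3 in all 7 lists of that mark and for H3K18la in none. H3K18la and H3K27me3 met at 0 members in BMDM (1.24% of genes) and at Ccl24, Cxcl1 and Cxcl16 in PIM (6.52%); mixed cells and both marks in 1 cell cannot be told apart.

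Beyond promoters, peaks also lay between the ligand genes. Of the 32 genes, 23 lie in 5 clusters: Cxcl5 to Cxcl2 with Cxcl3, Ppbp, Pf4 and Cxcl1 (chr5:90757360-90907938, also holding Cxcl15, a ligand gene outside the 32), Cxcl9 to Cxcl11 (chr5:92319347-92367485, overlapping Art3), Ccl22 to Ccl17 with Cx3cl1 (chr8:94743590-94814036), Ccl2 to Ccl1 (chr11:82033571-82307690) and Ccl5 to Ccl4 (chr11:83523778-83666683). H3K18la covered 15.3% of the bases of the Cxcl5 to Cxcl2 cluster in BMDM, 17.9 times the share over the chromosomes, and 34.6% in PIM, 13.2 times. In the Ccl5 to Ccl4 cluster it covered 16.4% (19.1 times) and 38.9% (14.9 times), whereas the other H3K18la lists covered at most 12.3% and 11.5% of these 2 clusters. The highest multiples among the other lists were 6.03 times in the first (MB, 9.28%) and 3.68 times in the second (ADIPO, 10.7%). Relative to list size, coverage of the Cxcl5 to Cxcl2 and Ccl5 to Ccl4 clusters was therefore slightly higher in BMDM than in PIM. The Ccl2 to Ccl1 cluster was covered less densely, by 3.86% (4.50 times) and 10.2% (3.90 times), with 10.9% in MT. Its span of 274120 bp reaches to a second annotated start of Ccl1, 125878 bp from the other, which enlarges the bases counted. Coverage without that stretch was not computed. The Cxcl9 to Cxcl11 cluster was covered by 3.48% (4.07 times) in BMDM and 15.8% (6.05 times) in PIM. For the Ccl22 to Ccl17 cluster the values were 0 and 4.87% (1.86 times). In these last 2 clusters the multiple was thus higher in PIM.

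**Figure D4:**
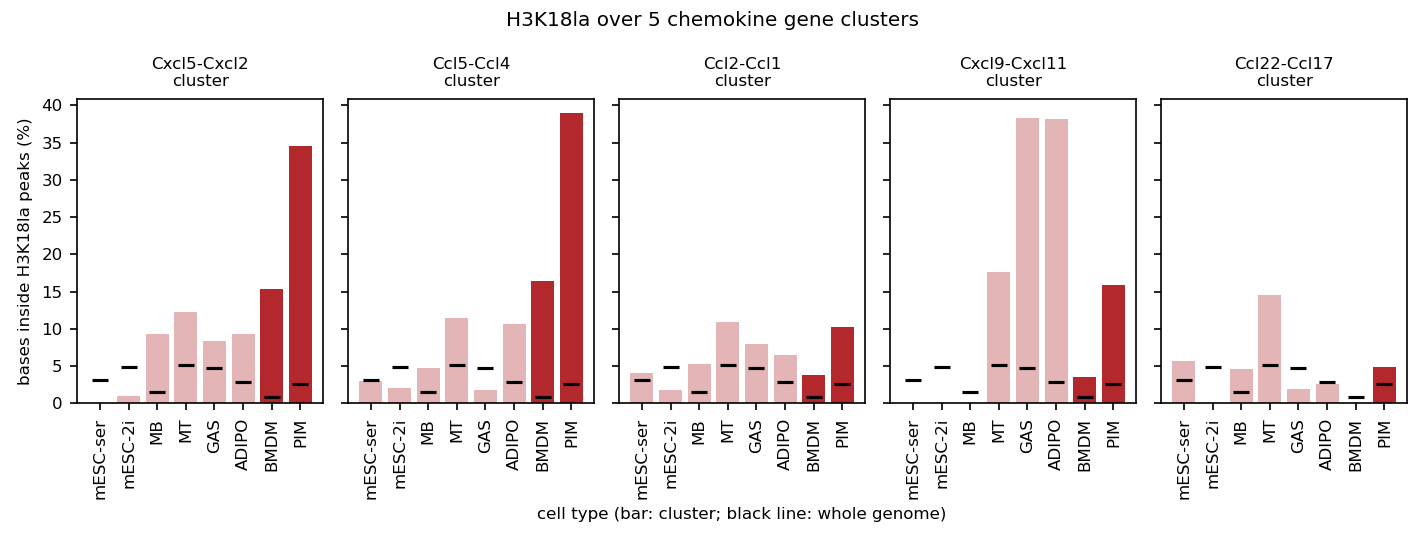
Bases covered by H3K18la peaks (%) in each of the 5 chemokine ligand clusters, for the 8 cell types, with a black line for the share of the chromosomes covered in the same list. BMDM and PIM stand well above their lines in the Cxcl5 to Cxcl2 and Ccl5 to Ccl4 clusters, while GAS and ADIPO have the highest values in the Cxcl9 to Cxcl11 cluster (38.3% and 38.1%).

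Most of these peaks lay outside the promoter windows. In the Cxcl5 to Cxcl2 cluster 10 of 16 peaks in BMDM and 10 of 16 in PIM were away from any member's promoter, and in the Ccl5 to Ccl4 cluster 17 of 22 and 13 of 20. The share of all peaks in each list away from promoters was not computed, so these counts are not read as particular to the clusters. Over the 5 clusters, 46 of the 49 BMDM peaks were overlapped by a PIM peak (whole list, 80.7%) and 36 of the 51 PIM peaks by a BMDM peak (41.4%). The overlap with H3K27ac was near that of the whole lists, 25 of 49 in BMDM (51.4%) and 28 of 51 in PIM (51.8%). Of the H3K18la lists of other cell types, mESC-ser overlapped 3 of the 51 PIM peaks (whole list, 22.5%), mESC-2i 4 (27.4%) and GAS 13 (40.4%). MB overlapped 9 (17%), MT 18 (42.2%) and ADIPO 20 (31.7%). H3K27me3 met 0 of 49 peaks in BMDM (1.28%) and 2 of 51 in PIM (7.67%).

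The strongest peaks of the 2 densest clusters lay away from the members' promoters. In BMDM, chr5:90896530-90901049 between Cxcl1 and Cxcl2, 4520 bp wide and 2822 bp upstream of the Cxcl2 start, was number 62 of 19571 peaks (top 0.317%), well above the peak on the Cxcl2 promoter itself. The same interval was called for H3K18la in GAS and PIM, for H3K27ac in BMDM and PIM, for H3K4me3 in PIM and for H3K27me3 in mESC-ser. In PIM it lay in an 8417 bp peak (top 1.26%) that also reached the start of Gm22816, and a 9758 bp peak at chr5:90873208-90882965, between Cxcl3 and Cxcl1, ranked higher, as number 119 of 32066 (top 0.371%). In the Ccl5 to Ccl4 cluster the strongest intergenic peaks, chr11:83639287-83641683 in BMDM (top 5.10%) and chr11:83638871-83641664 in PIM (top 5.65%), lay 7672 bp and 7691 bp from the Ccl3 start. As the strongest H3K18la element of the family, 300 bases of the BMDM peak upstream of Cxcl2 follow (chr5:90897440-90897739, plus strand, GRCm38.p6), with the same 4 motifs searched and a TATAAA match on the minus strand in capitals.
Cxcl2 upstream peak: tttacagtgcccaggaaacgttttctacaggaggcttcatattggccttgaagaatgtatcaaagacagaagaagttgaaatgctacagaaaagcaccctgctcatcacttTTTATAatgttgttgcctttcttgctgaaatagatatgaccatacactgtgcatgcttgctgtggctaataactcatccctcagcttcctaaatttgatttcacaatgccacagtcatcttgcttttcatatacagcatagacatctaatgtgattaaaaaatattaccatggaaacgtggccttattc

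**Figure D5:**
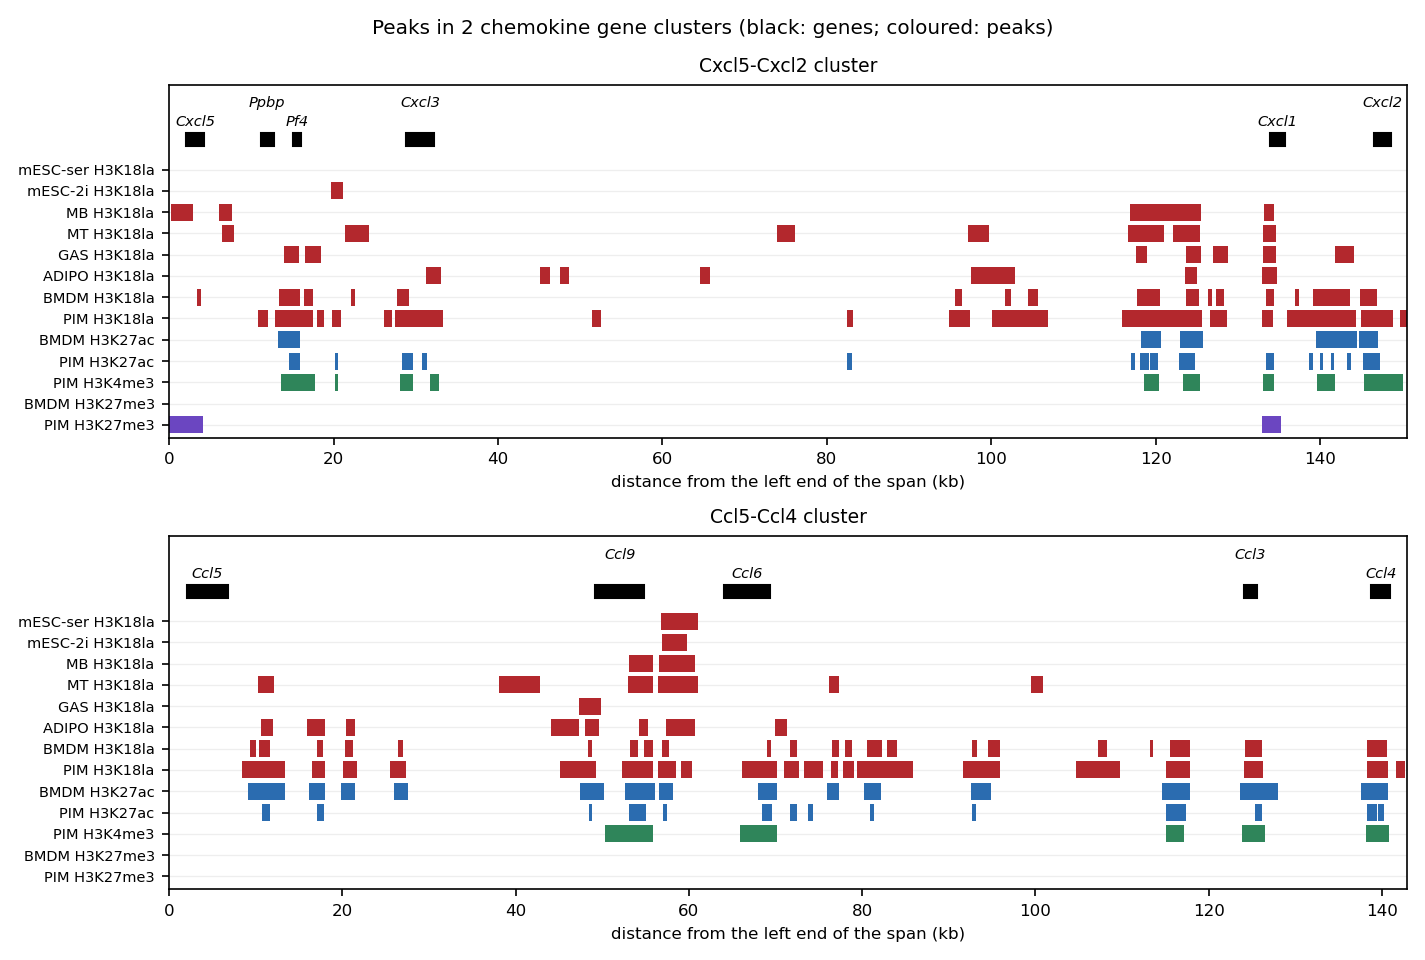
Peaks along the Cxcl5 to Cxcl2 cluster and the Ccl5 to Ccl4 cluster, drawn to scale as distance from the cluster's left end in kb, with 1 row for each list (H3K18la in 8 cell types in red, then H3K27ac in blue, H3K4me3 in green and H3K27me3 in purple for BMDM and PIM) and the member genes in black above. H3K18la peaks lie between the genes as well as over their starts, 16 in each macrophage list in the first cluster and 22 (BMDM) and 20 (PIM) in the second, and no H3K27me3 peak of BMDM or PIM lies in the second.

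Over the 8 cell types, 5 members had H3K18la in both macrophages and in no other list (Ccl3, Ccl4, Ccl12, Cxcl2 and Cxcl3), against 1.05% of all genes, and 9 in at least 1 macrophage list and no other (2.7%). For H3K27ac, 7 members were called in both macrophages and no other list (1.64%; Ccl3, Ccl4, Ccl6, Ccl9, Ccl12, Cxcl2 and Pf4) and 10 in at least 1 macrophage list and none of the other 3 (3.74%). Ccl3, Ccl4, Ccl12 and Cxcl2 were in both sets. A further 7 members had H3K18la in both macrophages and elsewhere (16.1%), 6 elsewhere only (30.5%) and 7 in no list (30.3%; Ccl22, Ccl28, Cxcl9, Cxcl13, Cxcl14, Cx3cl1 and Xcl1).

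Outside macrophages, single ligands stood out against low counts. Cxcl1 was called for H3K18la in 6 of 8 cell types, all but the stem cells, and Ccl2 in MB, MT, GAS and both macrophages. Cxcl12 was called for H3K18la in GAS alone (5140 bp, top 19.8%), where its H3K4me3 peak was in the top 4.49%, whereas in both macrophages it lay in the wide H3K27me3 domains given above; fibroblast markers were called for 3 of 3 genes and endothelial markers for 4 of 4 in GAS, and their part was not tested. Ccl9 was called in 7 lists, but in both stem cell lists by peaks 1948 bp and 1984 bp from its start. Ccl1, a Ccr8 ligand, was called for H3K18la in 4 non-macrophage lists by peaks that did not reach its start. In GAS all 3 Cxcr3 ligands were called for H3K27ac, with a 10402 bp peak at Cxcl10 (top 12.0%) and a 7251 bp peak at Cxcl11 (top 11.8%), and 68.8% of that cluster was covered; the cluster overlaps Art3, and which gene the peaks belong to was not tested. Further H3K18la calls included those of Ccl8 in MT and Cxcl5 in MB. Other H3K18la calls were by peaks over 1000 bp from the start. These were Ccl17 in MT and ADIPO (top 83.1% and 93.1%), Ccl20 in MT and Ccl11 in GAS. They also included Cxcl11 in MT (1851 bp away, top 8.50%) and Ccl25 in mESC-2i (1092 bp away, top 93.9%). For H3K27ac the same held for Ccl28 in GAS. Ccl25 was called in all 5 H3K27ac and all 4 H3K4me3 lists, each time by a peak that also covered the start of Elavl1.

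In BMDM and PIM, receptors of chemokines were called for H3K18la about as often as the ligands, and upstream regulators more often. Of 22 chemokine receptors, H3K18la was called at 8 in BMDM (all genes, 18.5%) and 14 in PIM (37.8%). The 8 of BMDM, which were also called in PIM, included Ccr1, a receptor of Ccl3, Cxcr4, that of Cxcl12, and Cx3cr1, that of Cx3cl1. PIM added Ccr2, the receptor of Ccl2, Cxcr2, the neutrophil receptor of Cxcl1 and Cxcl2, and Ccr6, Cxcr6, Xcr1 and Ackr2. Receptor and ligand calls did not always coincide: Cx3cr1, Cxcr4 and Cxcr5 were called in both lists, and their ligands Cx3cl1, Cxcl12 and Cxcl13 in neither. Of 12 upstream regulators, H3K18la was called at 10 in BMDM and 11 in PIM. Nfkb1, Rela, Nfkbia, Tnfaip3, Spi1 and Cebpb were among those called in both, and Irf1 and Irf7 were called in PIM but not BMDM. H3K27ac was called at 12 of 12 in both (all genes, 34% and 48.8%). High counts were not particular to macrophages. H3K18la was called at 12 of the 12 in GAS, 11 in MT, 11 in ADIPO, 7 in mESC-2i, 5 in mESC-ser and 1 in MB. H3K27ac was called at 12 in ADIPO, 11 in GAS and 6 in mESC-ser. Of 6 further chemokine ligand genes outside the 32, 0 had an H3K18la call in BMDM or PIM.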

How the data were processed

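CUT&Tag reads were trimmed with Trim Galore 0.6.6, aligned to mm10 with Bowtie2 2.4.4, processed with SAMtools 1.13 and bedtools 2.30, and called with SEACR 1.3 by the authors (stringent setting, top 1% of regions), after the replicate coverage tracks of a group were merged. The 24 deposited peak lists give the total signal (column 4) and highest coverage (column 5) of each peak as whole numbers without scaling for depth, so ranks were taken within a list; the lists do not give sequencing depth per sample, which was not used here. SEACR joins neighbouring enrichment, so widths depend on the list. Per the methods, peaks overlapping blacklisted regions were filtered out; whether the deposited lists were taken before or after that step was not tested.

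Gene starts were taken from GENCODE vM21; 1 of 2 starts of Ccl1 lies 125878 bp from the other. Peaks were intersected in Python 3.11.15 (pandas 2.3.3, numpy 2.4.6), which was tested on simulated intervals. A call required 1 overlapping base. Ranks are by total signal, with the top peak first. CpG islands were stretches of 200 bp in the promoter window with at least 50% GC and an observed-to-expected CpG ratio of 0.6, or 500 bp, 55% and 0.65 in the stricter definition. Every member was named, and other genes by call in BMDM or PIM. The rule for members used no measured value, but members and gene lists were chosen with earlier results of these data known. RefSeq promoters matched 23 of 32 members; Ccl2, Ccl4, Ccl5, Ccl7, Ccl11, Ccl24, Cxcl5, Cxcl11 and Cxcl16 had no entry. Alternatives were a window of 1000 bp on each side, coverage of at least 2000 bp of the window by a peak, the 5000 strongest peaks, equal called bases, protein-coding transcripts, ranking by highest coverage and clusters with 20 kb added.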

Additional observations from a re-analysis of the deposited data

How the results depend on the processing

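No paired analysis was possible because the replicates of a group were merged before peaks were called, and leaving out a replicate could not be run for the same reason; no p-value or replicate error stands behind any count. Over 182 values recomputed under other settings, 115 stayed within 1.5 times the main count or within the limits set for ranks and coverage, and 67 moved; with protein-coding transcripts only, none moved. The cause of the moves was not tested, except that fewer peaks or a stricter overlap leave fewer calls by construction.

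When a peak had to cover 2000 bp of the window, H3K18la was called at 6 members in BMDM and H3K27ac at 2 in PIM; between BMDM and PIM, H3K18la was called in both at 6, in PIM alone at 7 and in BMDM alone at 0, H3K27ac in both at 2, in PIM alone at 0 and in BMDM alone at 7, and H3K27me3 in BMDM alone at 1. With a window of 1000 bp, H3K18la was called in PIM alone at 3 and in BMDM alone at 0. With equal called bases, H3K18la was called in both at 6, in PIM alone at 2 and in BMDM alone at 7, and 0 members were called outside macrophages only.

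With the 5000 strongest peaks of each list, H3K18la was called at 7 members in BMDM and 10 in PIM, and H3K27ac at 4, H3K4me3 at 6 and H3K27me3 at 4 in PIM. H3K18la was then called in both at 5, in PIM alone at 5 and in BMDM alone at 2, H3K27ac in both at 3, in PIM alone at 1 and in BMDM alone at 3, and H3K27me3 in both at 3, in PIM alone at 1 and in BMDM alone at 1; 1 member had H3K18la outside macrophages only. H3K18la then covered 9.93% of the Cxcl5 to Cxcl2 cluster in BMDM, 0 and 0.577% of Cxcl9 to Cxcl11 in BMDM and PIM, 0 of Ccl22 to Ccl17 in PIM, 1.89% and 4.20% of Ccl2 to Ccl1 and 7.57% and 17.2% of Ccl5 to Ccl4. With 20 kb added, it covered 7.90% of Cxcl9 to Cxcl11 in BMDM and 3.22% of Ccl22 to Ccl17 in PIM. Ranked by highest coverage, the median H3K18la rank was 26.4% in PIM and 24.1% in BMDM, the reverse of their order by total signal.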

Other observations

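In the Cxcl9 to Cxcl11 cluster H3K18la covered 38.3% of its bases in GAS and 38.1% in ADIPO, against 3.48% in BMDM and 15.8% in PIM, and H3K27ac covered 68.8% in GAS. Of its 3 ligand genes, only the promoter of Cxcl11 was called for H3K18la in GAS, and none in ADIPO. In MT, H3K18la covered 14.5% of the Ccl22 to Ccl17 cluster and 10.9% of the Ccl2 to Ccl1 cluster, 2.80 and 2.10 times the share over the chromosomes, the latter below the multiples of BMDM (4.50) and PIM (3.90). H3K27ac in the Ccl5 to Ccl4 cluster covered 25.1% of the bases in BMDM, 20.2 times the share over the chromosomes, and 8.87% in PIM, 8.54 times; for H3K18la the percent of bases was higher in PIM, and the multiple of the share over the chromosomes was higher in BMDM. H3K27me3 covered 22.1% of the Ccl2 to Ccl1 cluster in BMDM and 12.1% in PIM.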
